A study of Mus musculus with 6 samples.

Results

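The genes described here are 31 genes of coagulation, fibrinolysis and the vitamin K cycle, chosen by name from the 55357 gene identifiers counted in mouse liver. They comprise 7 vitamin K-dependent factors (F2, F7, F9, F10, Proc, Pros1 and Proz), 9 other procoagulant factors and cofactors (F3, F5, F8, F11, F12, F13b, Klkb1, Kng1 and Kng2), the 3 fibrinogen chains (Fga, Fgb and Fgg), 4 anticoagulant inhibitors (Serpinc1, Serpind1, Serpina10 and Tfpi), 4 genes of fibrinolysis (Plg, Serpinf2, Cpb2 and Hrg) and 4 genes of the vitamin K cycle and its quinone reductases (Vkorc1, Vkorc1l1, Ggcx and Nqo2). All 31 were found, all 31 are protein-coding, and all 31 had enough counts to be tested among 14433 genes.

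RNA was sequenced from livers of wild-type male C57BL6/J mice aged 8 to 9 weeks, in 3 vehicle and 3 esculetin libraries, each made from 2 mice. All mice were gavaged daily for 7 days, on a control diet (10% of kcal from fat) for 4 days and then on a high-fat diet (60% of kcal from fat) for 3 days, so the controls also carry the high-fat diet. The vehicle was 2.5% Tween-80. The annotations disagree on the dose (180 mg/kg/d by the titles and the protocol, 90 mg/kg/d by the treatment entry), so the treated group is named here without one. Each library pools 2 animals, so p-values measure the spread between pools and not between single mice.

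Most clotting factors circulate as inactive precursors made by hepatocytes, and a cascade of proteases ends in thrombin, which turns fibrinogen into fibrin, while plasmin dissolves the clot. The vitamin K-dependent proteins carry glutamate residues that Ggcx carboxylates with reduced vitamin K as cofactor, and the spent vitamin K epoxide is reduced again by Vkorc1 and its paralog Vkorc1l1. Coumarin anticoagulants such as warfarin block that reductase, so they act on the modification of the proteins and not on their messenger RNA. Esculetin is a dihydroxycoumarin, and the comparison asks whether RNA levels of these genes differed in the livers that received it. RNA counts measure neither carboxylation nor clotting activity.

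Levels are given as CPM, the counts scaled to a common library size after edgeR's TMM normalisation, and differences as the log2 fold change of esculetin over vehicle with its standard error (SE) from edgeR's quasi-likelihood test. A gene was called at an unadjusted p under 0.05 with a fold change over 1.5, the thresholds named in the study's methods, and the p-value after Benjamini-Hochberg adjustment over all genes tested is given beside it. The libraries held between 27957713 and 34920922 counts, and the esculetin libraries were the 3 deepest, so depth and treatment cannot be told apart. In these libraries 3 counts correspond to between 0.0865 and 0.109 CPM, far under the level of every member. The 6 hepatocyte markers summed to between 77110 and 80820 CPM with vehicle and between 76020 and 81610 CPM with esculetin, most of it from Alb, and 5 of 6 had estimates above 0. None was called, but Apoa2, an apolipoprotein of HDL, was higher in every esculetin library (3781, 3467 and 3531 CPM against 4483, 4715 and 4756 CPM, log2 fold change 0.37, SE 0.08, unadjusted p = 0.000803, adjusted p = 0.136, edgeR). In bulk liver, fewer cells of a type and less RNA per cell cannot be told apart.

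None of the 31 genes was called. Across all genes tested 452 were called, or 3.13%, with 198 higher and 254 lower in the esculetin group. Of the 31 genes, 2 had an unadjusted p under 0.05, Hrg being higher and F11 lower with esculetin, which is 6.45% of them beside 11.9% of all genes tested. None had an adjusted p under 0.05, the smallest being 0.368 for Hrg, beside 6 of all genes tested, or 0.0416%. Every esculetin library lay above every vehicle library for 3 of them (F7, Hrg and Nqo2), which is 9.68% beside 9.2% of all genes, and below for 0, beside 8.24% of all genes. Among the 7236 genes with a mean of at least 10 CPM, which include 29 of the 31, 1.26% were called and 16% had an unadjusted p under 0.05. Of those 29 members, 0 were called and 6.9% had an unadjusted p under 0.05.

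The estimated changes were small and their intervals narrow. The 95% interval of the fold change lay within 1.5-fold in either direction for 29 of the 31 genes, the exceptions being F3 (0.601 to 1.29) and Vkorc1 (0.953 to 1.71), which are among the 4 genes of lowest level per length. It lay within 1.2-fold for 13 of them. Of the 31 estimates 23 were higher with esculetin, beside 48.5% of all genes tested and 52.2% of genes of at least 10 CPM. That number was 17 without esculetin 1, 19 without vehicle 1 or esculetin 3, and 27 without vehicle 3 or esculetin 2. The median log2 fold change was 0.05 over the 31 genes and -0.008 over all genes tested.

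**Figure D1:**
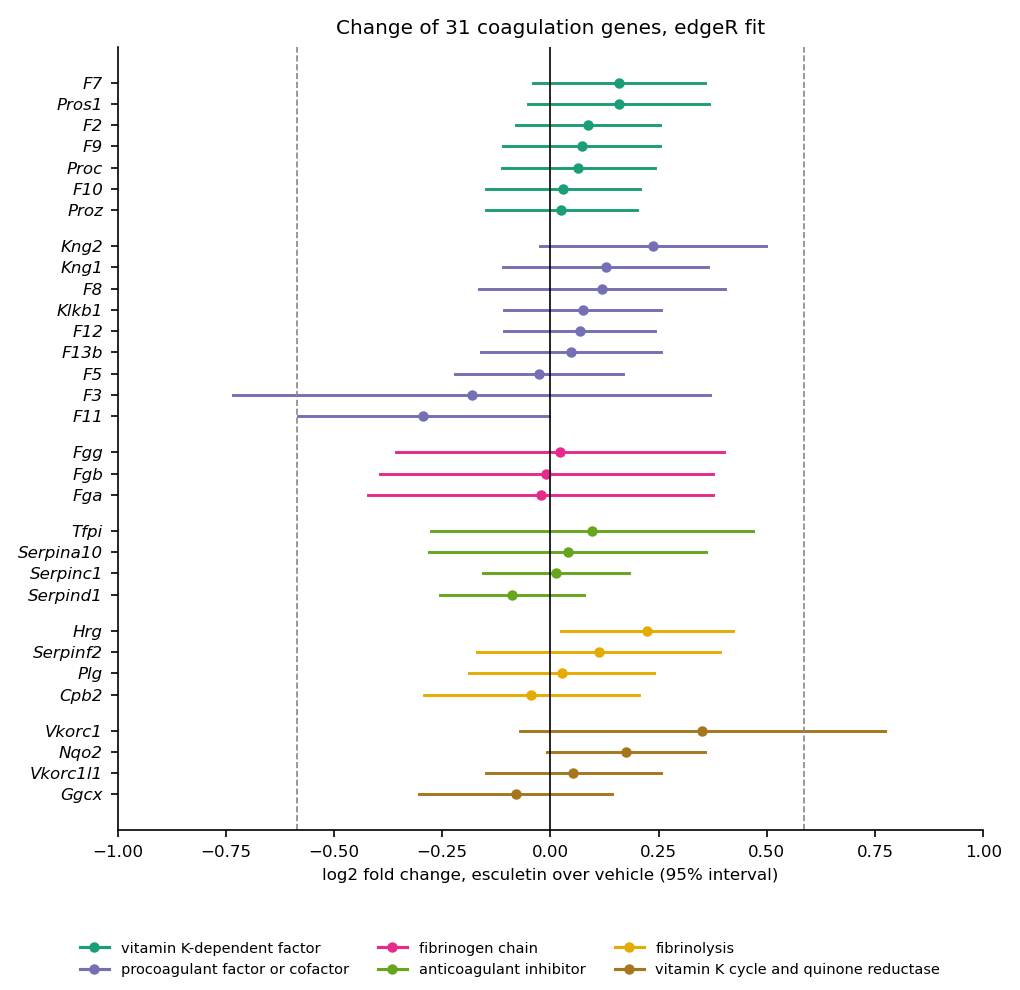
Log2 fold change of esculetin over vehicle for each of the 31 genes, grouped and coloured by role, with points at the estimate of the edgeR fit and bars for its 95% interval. The dashed lines mark a fold change of 1.5 in either direction. Most intervals cross 0, those of Hrg and F11 lie just to one side of it, and only the bars of F3 and Vkorc1 reach past a dashed line.

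The members spanned about 3 orders of magnitude in level. The length used is that of all annotated exons of a gene merged, so the order of levels per kb also depends on the annotation. Per kb of exon sequence, the 3 fibrinogen chains led with means of 1424 (Fga), 1223 (Fgb) and 1221 (Fgg) CPM per kb over the 6 libraries, followed by Kng1 at 692 and Plg at 608. F2, which encodes prothrombin, had 315 CPM per kb and was the highest of the vitamin K-dependent factors, and Pros1 was the lowest of these at 14.4. At the low end stood Vkorc1l1 at 7.79, Ggcx at 6.35, F8 at 2.68, Vkorc1 at 2.03, Tfpi at 1.80 and F3 at 1.08 CPM per kb. F8 and Tfpi are known as products of endothelial rather than parenchymal cells, and F3 encodes tissue factor, the membrane protein that starts clotting outside the vessel. The 8 sinusoidal endothelial markers summed to between 239 and 286 CPM with vehicle and between 258 and 287 CPM with esculetin, with 0 of 8 called.

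**Figure D2:**
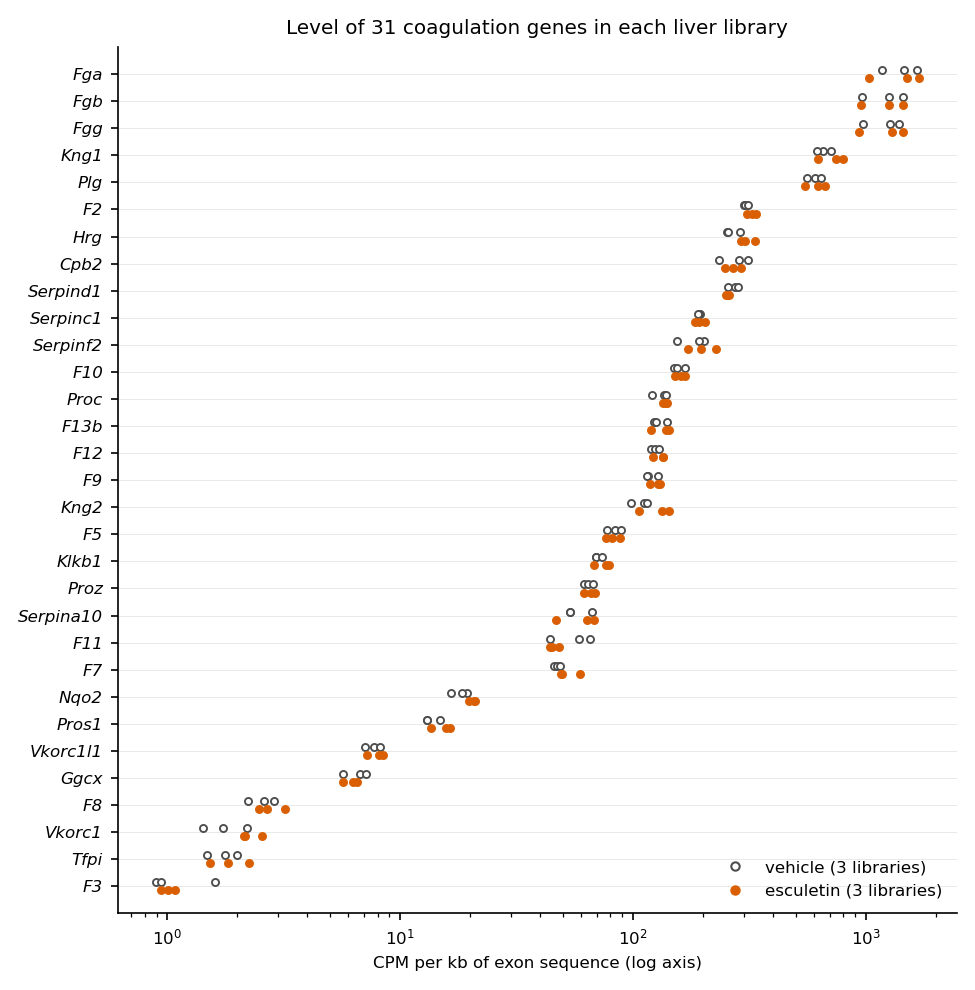
Level of each of the 31 genes in every library, in CPM per kb of exon sequence on a log axis, ordered by the mean over the 6 libraries. Open circles stand for the 3 vehicle libraries and filled circles for the 3 esculetin libraries. The fibrinogen chains stand at the top and F3 at the bottom, and the open and filled circles of most genes intermingle.

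The 7 vitamin K-dependent factors had slightly higher estimates with esculetin in each case, and 0 of 7 had an unadjusted p under 0.05. Their log2 fold changes ran from 0.025 to 0.16 with a median of 0.07, and SEs ran from 0.07 to 0.09. The fold change intervals of all 7 lay between 0.902 and 1.29, so changes of 1.3-fold or more lie outside each single-gene interval. The other 24 members had a median of 0.04, with 16 of 24 higher. The order of the medians turned when single libraries were left out. Without vehicle 3 it was 0.1052 for the vitamin K-dependent factors and 0.1065 for the other members, and without esculetin 2 it was 0.1152 and 0.1375.

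F2 encodes prothrombin, the precursor of thrombin. It stood at 1437, 1460 and 1500 CPM in vehicle libraries 1, 2 and 3 and at 1616, 1486 and 1567 CPM in esculetin libraries 1, 2 and 3. The groups overlapped, since esculetin 2 fell under vehicle 3, and the log2 fold change was 0.09 (SE 0.07, unadjusted p = 0.274, edgeR). Factor VII, encoded by F7, is the protease that pairs with tissue factor. F7 was at 86.8, 88.9 and 92.2 CPM with vehicle and at 112, 93.2 and 93.9 CPM with esculetin. The esculetin libraries were the higher ones, but for esculetin 2 and 3 by less than 2 CPM, and the log2 fold change was 0.16 (SE 0.09, unadjusted p = 0.104, edgeR). Without esculetin 1 it was 0.07.

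F7, F10 and Proz lie in a row on the same strand of chromosome 8 (GRCm39), with gaps of 1.5 kb between F7 and F10 and 3.9 kb between F10 and Proz. F10 encodes factor X, whose active form converts prothrombin to thrombin, and it was at 413, 423 and 459 CPM with vehicle and 461, 416 and 443 CPM with esculetin. Proz encodes protein Z, the cofactor of the inhibitor made by Serpina10, and was at 372, 389 and 409 CPM with vehicle and 417, 374 and 399 CPM with esculetin. In both genes the groups overlapped almost entirely, and the log2 fold changes were 0.03 (SE 0.08) and 0.025 (SE 0.08). Leaving out vehicle 1 or esculetin 1 turned the sign of both estimates, to -0.0046 at the lowest for F10 and -0.0109 for Proz.

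F9 encodes factor IX, the protease lacking in hemophilia B. Its levels were 318, 316 and 352 CPM with vehicle and 352, 325 and 359 CPM with esculetin, with a log2 fold change of 0.07 (SE 0.08, unadjusted p = 0.394, edgeR). Proc and Pros1 encode the anticoagulants protein C and its cofactor protein S. Proc had 373, 419 and 427 CPM with vehicle and 432, 415 and 428 CPM with esculetin, where vehicle 1 alone stood low. Pros1 had 82.3, 82.1 and 93.6 CPM with vehicle and 103, 85.5 and 99.2 CPM with esculetin, a log2 fold change of 0.16 (SE 0.09, unadjusted p = 0.124, edgeR), and the groups overlapped through esculetin 2. When esculetin 2 was left out, the value for Pros1 was 0.23 (unadjusted p = 0.0362, edgeR), and without esculetin 1 it was 0.10 (unadjusted p = 0.339, edgeR). An unadjusted p under 0.05 was reached in 1 of 13 alternative analyses.

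Set against the other members library by library, the vitamin K-dependent factors did not separate the groups. Their mean log2 CPM minus that of the other 24 members was 0.10, 0.14 and 0.12 in vehicle libraries 1 to 3 and 0.14, 0.20 and 0.14 in esculetin libraries 1 to 3. The lowest esculetin library fell just under the highest vehicle library, and the highest value was that of esculetin 2. The 7 of 7 higher estimates come from the same 6 libraries and are not 7 independent observations. Without vehicle 1 or without esculetin 1 the number higher was 5 of 7.

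**Figure D3:**
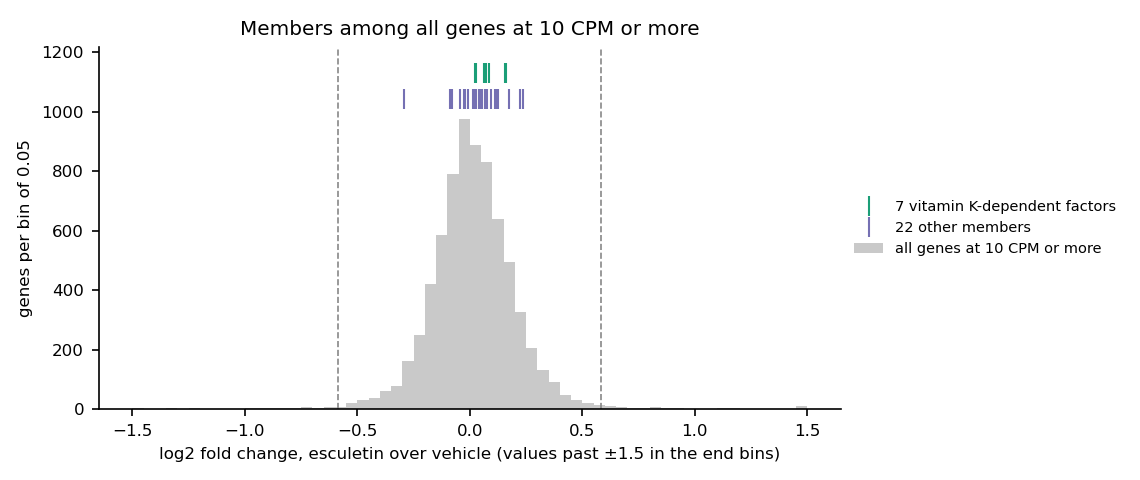
Number of genes per bin of 0.05 in log2 fold change (grey) for the genes with a mean of at least 10 CPM, with ticks above for the 29 members of that level. Dashed lines mark a fold change of 1.5. The 7 vitamin K-dependent factors (upper ticks) lie just to the right of 0 and the other members (lower ticks) spread over the centre of the distribution, F11 being the leftmost tick and Kng2 the rightmost.

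Of the 4 vitamin K cycle and quinone reductase genes, 0 were called and 0 had an unadjusted p under 0.05. Vkorc1, the target of warfarin, had the largest estimate of the 31 genes and also one of the widest intervals. It was counted 165, 119 and 121 times in the vehicle libraries and 209, 191 and 182 times in the esculetin libraries, which corresponds to 5.62, 3.65 and 4.41 CPM and to 6.5, 5.51 and 5.43 CPM. Vehicle 1 lay above esculetin 2 and 3, and the log2 fold change was 0.35 (SE 0.19, unadjusted p = 0.0928, adjusted p = 0.50, edgeR). Leaving out single libraries moved it between 0.21 and 0.53, with an unadjusted p of 0.0212 without vehicle 1.

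The counts of Vkorc1 are uncertain for another reason. The gene lies on chromosome 7 (GRCm39, 127490557 to 127494821, minus strand), and 29.5% of its exon bases and 69.4% of its coding bases also belong to exons of Prss53 or the gene model Gm21974 on the same strand. Gm21974 had 0 counts in every library and Prss53 between 11 and 24. How reads falling in several genes were counted is not given in the sources used here, so the level of Vkorc1 may be understated, and the effect on its fold change was not tested. Only Vkorc1 and Klkb1 share exon bases with a gene on the same strand. Genes on the opposite strand share exon bases with 10 other members, over 10% of them for Serpinc1 (34.4%), Serpina10 (30.8%), Nqo2 (15.9%), F3 (14.2%) and Plg (11.2%), and since the use of strand in counting is not given, their counts carry the same uncertainty.

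Vkorc1l1, the paralog that also reduces vitamin K epoxide, stood at 63.5, 58.1 and 67.7 CPM with vehicle and 67.2, 69.7 and 59.4 CPM with esculetin. Ggcx, the carboxylase itself, stood at 55.0, 58.5 and 46.5 CPM with vehicle and 53.6, 51.1 and 46.7 CPM with esculetin. Both overlapped between groups, with log2 fold changes of 0.05 (SE 0.09) for Vkorc1l1 and -0.08 (SE 0.10) for Ggcx. The fold change intervals were 0.902 to 1.19 for Vkorc1l1 and 0.810 to 1.10 for Ggcx.

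Nqo2 encodes a quinone reductase of the same family as Nqo1, an enzyme that can reduce vitamin K quinone to its hydroquinone. Nqo2 was at 93.4, 88.5 and 79.1 CPM with vehicle and at 94.3, 100 and 100.3 CPM with esculetin. All esculetin libraries were above all vehicle libraries, esculetin 1 by under 1 CPM over vehicle 1, and the log2 fold change was 0.17 (SE 0.08, unadjusted p = 0.0600, edgeR). Leaving out vehicle 3 gave 0.11 (unadjusted p = 0.207) and leaving out vehicle 1 gave 0.23 (unadjusted p = 0.0306, edgeR). Nqo1, which is not one of the 31, was called: it stood at 4.46, 2.64 and 2.19 CPM with vehicle and at 7.03, 9.66 and 7.35 CPM with esculetin. The lowest esculetin library exceeded the highest vehicle library, with a log2 fold change of 1.37 (SE 0.26, unadjusted p = 0.000367, adjusted p = 0.132, edgeR). The CPM of Nqo1 relative to Nqo2 was 0.0351 ± 0.0111 with vehicle and 0.0814 ± 0.0131 with esculetin (SD, n = 3), so Nqo1 stayed the far smaller of the pair in counts.

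**Figure D4:**
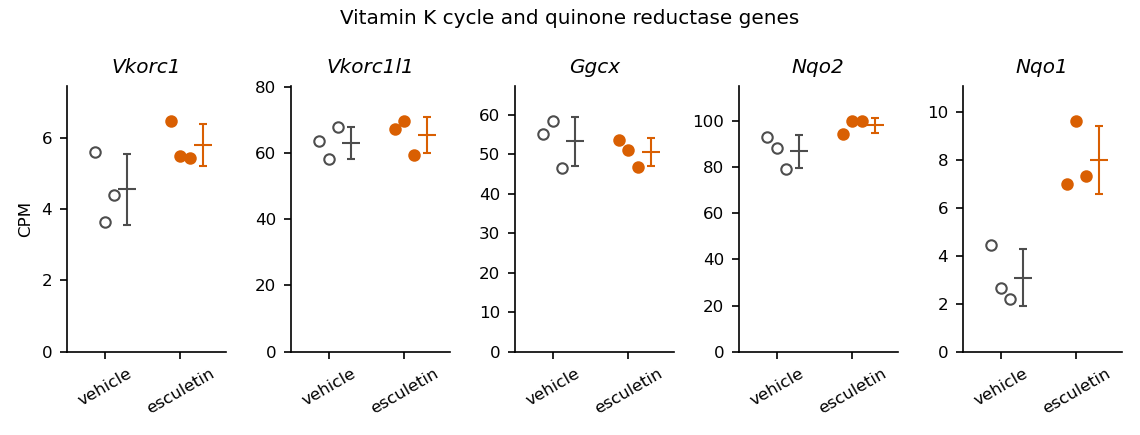
CPM of Vkorc1, Vkorc1l1, Ggcx, Nqo2 and, for comparison, Nqo1 in each library, each panel with its own axis from 0. Points are libraries, and the bar beside them is the mean with its SD over 3 libraries. Only the Nqo1 panel shows groups set clearly apart, from 2.19 to 4.46 CPM with vehicle and from 7.03 to 9.66 CPM with esculetin.

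Other genes that handle vitamin K or carry glutamate carboxylation were read from lists of their own. Of 8 other genes of vitamin K handling 7 were tested, and Nqo1 was the only one called, with 5 of 7 higher. Of 8 other genes for carboxylated (Gla) proteins 5 were tested and 0 were called. Gas6, the growth factor related to protein S, had an unadjusted p of 0.0148 (edgeR) there, with 18.5, 15.2 and 16.8 CPM with vehicle and 20.7, 20.1 and 21.0 CPM with esculetin, a log2 fold change of 0.29 (SE 0.10, adjusted p = 0.294). Bglap and Bglap2, which encode the bone protein osteocalcin, had 0 counts in all libraries.

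Of the other procoagulant factors, the contact pathway held the members with the largest estimates. F11, factor XI, was at 126, 188 and 168 CPM with vehicle and 138, 130 and 126 CPM with esculetin. Vehicle 2 and 3 stood above all esculetin libraries while vehicle 1 lay among them, and the log2 fold change was -0.29 (SE 0.13, unadjusted p = 0.0478, adjusted p = 0.415, edgeR). Without vehicle 1 it was -0.44 (unadjusted p = 0.000795), and without vehicle 2 it was -0.16 (unadjusted p = 0.228, edgeR). Without any other single library the unadjusted p lay between 0.0553 and 0.117. The unadjusted p was under 0.05 in 6 of 13 alternative analyses.

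F11 lies on chromosome 8 (GRCm39, 45693697 to 45715177, minus strand), 4.5 kb from Klkb1, which encodes plasma prekallikrein and arose from a shared ancestral gene. Klkb1 was at 366, 364 and 388 CPM with vehicle and 414, 359 and 403 CPM with esculetin, with a log2 fold change of 0.07 (SE 0.08). The CPM ratio of F11 to Klkb1 was 0.345, 0.518 and 0.433 with vehicle and 0.334, 0.360 and 0.313 with esculetin, so vehicle 1 lay among the esculetin libraries here too. All coding bases of Klkb1 are also annotated to the gene model Gm45753 on the same strand, which had 2 counts over the 6 libraries beside 72527 for Klkb1.

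Kng1 and Kng2 encode kininogens, the cofactors of contact activation from which bradykinin is released. Kng2 was at 314, 276 and 322 CPM with vehicle and 402, 297 and 375 CPM with esculetin, with esculetin 2 among the vehicle libraries and a log2 fold change of 0.24 (SE 0.12, unadjusted p = 0.0695, edgeR). Kng1 was at 2160, 2035 and 2339 CPM with vehicle and 2633, 2050 and 2455 CPM with esculetin, a log2 fold change of 0.13 (SE 0.11). Esculetin 2 was the lowest esculetin library in both genes. Without it, the values were 0.36 for Kng2 (unadjusted p = 0.00625) and 0.22 for Kng1 (unadjusted p = 0.0467, edgeR). Without esculetin 1 they were 0.15 for Kng2 (unadjusted p = 0.251) and 0.0491 for Kng1 (unadjusted p = 0.665, edgeR). These paralogs are near each other on chromosome 16 and similar in sequence, so reads may be shared between them, and their ratio (Kng1 over Kng2) was 7.18 ± 0.26 with vehicle and 6.66 ± 0.205 with esculetin (SD, n = 3).

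The remaining procoagulant members had 0 of 5 with an unadjusted p under 0.05. F12, which encodes factor XII of the contact pathway, had 308 ± 12.3 CPM with vehicle and 323 ± 19.1 CPM with esculetin (SD, n = 3). F13b, the carrier subunit of the fibrin-crosslinking factor XIII, had 334 ± 22.5 and 345 ± 33.2 CPM. The cofactors F5 and F8 had 688 ± 49.2 against 676 ± 45.9 CPM and 25.4 ± 3.32 against 27.6 ± 3.77 CPM. F12, F13b, F5 and F8 overlapped between groups, with log2 fold changes between -0.03 and 0.12. F3 was counted at 4.97, 2.76 and 2.92 CPM with vehicle and 2.92, 3.11 and 3.34 CPM with esculetin, and its log2 fold change of -0.18 had the largest SE of the 31 genes (0.25) and became 0.14 without vehicle 1.

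The fibrinogen chains were the most abundant members and varied between libraries of the same group in near lockstep. Fga, Fgb and Fgg encode the Aα, Bβ and γ chains that assemble into fibrinogen, and they lie in one cluster on chromosome 3 (GRCm39), with Fgg 11 kb from Fga and Fga 6.5 kb from Fgb, Fgb on the opposite strand. Their promoters are shown by a rule that limited promoters to called members and the fibrinogen chains. The 250 bases before each annotated start, from RefSeq on GRCm38.p6, are printed 5′ to 3′ on the strand of the gene with motif matches in capitals (Fga chr3:83025903-83026152, plus strand; Fgb chr3:83049864-83050113, minus strand; Fgg chr3:83007474-83007723, plus strand).
Fga: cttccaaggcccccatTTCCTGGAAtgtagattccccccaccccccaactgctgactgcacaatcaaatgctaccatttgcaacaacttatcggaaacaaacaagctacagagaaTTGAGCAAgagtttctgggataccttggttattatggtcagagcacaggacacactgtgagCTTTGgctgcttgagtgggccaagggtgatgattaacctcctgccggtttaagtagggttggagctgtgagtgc
Fgb: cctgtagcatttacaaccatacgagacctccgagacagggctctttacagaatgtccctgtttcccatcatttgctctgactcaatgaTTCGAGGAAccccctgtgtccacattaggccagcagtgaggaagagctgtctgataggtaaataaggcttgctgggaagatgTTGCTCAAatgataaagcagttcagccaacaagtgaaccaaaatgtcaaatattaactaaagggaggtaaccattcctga
Fgg: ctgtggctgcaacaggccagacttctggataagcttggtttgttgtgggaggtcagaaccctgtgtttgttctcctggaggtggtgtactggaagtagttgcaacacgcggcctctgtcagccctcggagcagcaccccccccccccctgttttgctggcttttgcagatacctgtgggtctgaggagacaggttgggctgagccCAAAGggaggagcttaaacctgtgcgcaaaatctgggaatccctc

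The letters searched, on both strands, were TTGCNNAA for C/EBP factors, CAAAG for a core of the HNF4 site and TTCNNNGAA for STAT3, a mediator of the acute phase response in liver. Counted from the start, the C/EBP letters of Fga lie at -135 to -128, the HNF4 letters at -74 to -70 and the STAT3 letters at -234 to -226. Fgb has the C/EBP letters at -80 to -73 and the STAT3 letters at -162 to -154. Fgg holds only the HNF4 letters, at -45 to -41. Over 32851 promoters of that table these letters occur in 9.56% (C/EBP), 48.6% (HNF4) and 7.02% (STAT3). Of the 27 members matched to the table at any listed start, 8 held the C/EBP letters, 20 the HNF4 letters and 4 the STAT3 letters. A match is a description of the letters and not evidence of binding.

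Fga had 3774, 4693 and 5339 CPM in vehicle libraries 1 to 3 and 5429, 3326 and 4840 CPM in esculetin libraries 1 to 3. Fgb followed with 3700, 4837 and 5530 CPM with vehicle and 5532, 3635 and 4802 CPM with esculetin. Fgg showed 2368, 3076 and 3365 CPM with vehicle and 3522, 2269 and 3155 CPM with esculetin. In each chain vehicle 1 and esculetin 2 were low and vehicle 3 and esculetin 1 were high, so the range within each group covered most of the range of the other. The log2 fold changes were -0.02 for Fga, -0.01 for Fgb and 0.02 for Fgg, with SEs of 0.18, 0.17 and 0.17, about 2 times those of the vitamin K-dependent factors.

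Summed, the chains took 0.984%, 1.26% and 1.42% of normalised counts with vehicle and 1.45%, 0.923% and 1.28% with esculetin. The ratios between them hardly moved, with Fga over Fgb between 0.915 and 1.02 and Fgg over Fgb between 0.609 and 0.657 in the 6 libraries. Acute phase proteins, which the liver makes in inflammation and with which fibrinogen is usually grouped, differed along similar lines. The mean log2 CPM of 14 such genes, relative to the mean of the 6 libraries, was -0.53, -0.12 and 0.29 in vehicle libraries 1 to 3 and 0.54, -0.19 and 0.01 in esculetin libraries 1 to 3. For the fibrinogen chains the same values were -0.29, 0.07 and 0.24 with vehicle and 0.27, -0.38 and 0.09 with esculetin. Vehicle 1 and esculetin 2 were the lowest, and esculetin 1 and vehicle 3 the highest, in both sets. Over the 6 libraries the Pearson correlation with the fibrinogen chains was 0.846 for the acute phase proteins and 0.911 for the fibrinolysis genes. It was 0.781 for the vitamin K-dependent factors, 0.736 for the inhibitors and 0.626 for the other procoagulant factors. For the vitamin K cycle genes it was -0.381. None of these correlations had an adjusted p under 0.05 (permutation test). Of the 14 acute phase genes 0 were called, 11 were higher with esculetin, and the median log2 fold change was 0.16. Crp, the gene for C-reactive protein, was the only one with an unadjusted p under 0.05, at 440, 455 and 454 CPM with vehicle and 556, 489 and 530 CPM with esculetin (log2 fold change 0.22, SE 0.08, unadjusted p = 0.0166, adjusted p = 0.306, edgeR).

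**Figure D5:**
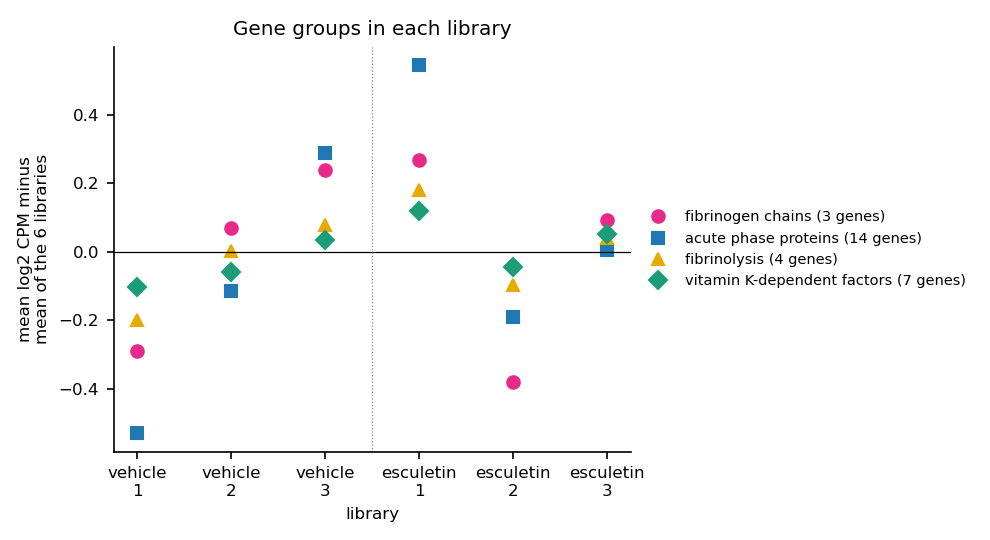
Mean log2 CPM of 4 gene sets in each library, minus the mean of the 6 libraries, for the fibrinogen chains, 14 acute phase proteins, the fibrinolysis genes and the vitamin K-dependent factors. Vehicle libraries are left of the dotted line and esculetin libraries right of it. In vehicle 1 and esculetin 2 all 4 sets lie under 0 and in vehicle 3 and esculetin 1 all 4 lie above it. Not shown are the vitamin K cycle genes, which were above 0 in vehicle 1 (0.054) and esculetin 2 (0.079) and under it in vehicle 3 (-0.1216). The other procoagulant factors and the inhibitors, also not shown, were near 0 in vehicle 1 (-0.004 and -4e-04).

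The anticoagulant inhibitors gave 0 of 4 with an unadjusted p under 0.05. Serpinc1, antithrombin, the main inhibitor of thrombin and factor Xa, was among the steadiest members, at 1661, 1639 and 1635 CPM with vehicle and 1753, 1640 and 1585 CPM with esculetin. Its fold change was 1.01 with a 95% interval from 0.897 to 1.13. Serpind1, heparin cofactor II, had 654, 699 and 722 CPM with vehicle and 662, 640 and 649 CPM with esculetin, a log2 fold change of -0.09 (SE 0.07, unadjusted p = 0.261, edgeR). Serpina10, the protein Z-dependent inhibitor, had 284 ± 37.2 and 292 ± 55.4 CPM, and Tfpi, the inhibitor of the tissue factor pathway, 10.7 ± 1.54 and 11.4 ± 2.23 CPM (SD, n = 3). Both overlapped between groups, with log2 fold changes of 0.04 (SE 0.14) and 0.10 (SE 0.17).

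Among the genes of fibrinolysis, Hrg had the smallest p of the 31. Hrg encodes histidine-rich glycoprotein, a plasma protein that binds plasminogen, heparin and fibrinogen. It was at 887, 890 and 1003 CPM with vehicle and at 1171, 1013 and 1060 CPM with esculetin. Each esculetin library was above each vehicle library, esculetin 2 only narrowly above vehicle 3, and the fold change was 1.17 (95% interval 1.02 to 1.34), a log2 fold change of 0.22 (SE 0.09, unadjusted p = 0.0314, adjusted p = 0.368, edgeR). Its unadjusted p was under 0.05 in 9 of 13 alternative analyses. It was 0.0808 without vehicle 1, 0.0958 without vehicle 2 and 0.119 without esculetin 1 (edgeR), where the log2 fold change was 0.16. Hrg lies on chromosome 16 (GRCm39, 22769822 to 22780406, plus strand), 24.2 kb from Kng2 and in one cluster with Kng1, and shares no exon base with another gene.

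Plg, Serpinf2 and Cpb2 completed that set. Plg, the precursor of plasmin, had 2082, 2273 and 2397 CPM with vehicle and 2495, 2055 and 2323 CPM with esculetin. Serpinf2, the plasmin inhibitor, had 613, 802 and 762 CPM with vehicle and 895, 681 and 776 CPM with esculetin. Cpb2, the carboxypeptidase that slows clot lysis, had 405, 493 and 537 CPM with vehicle and 501, 427 and 464 CPM with esculetin. All 3 overlapped between groups, and in each vehicle 1 was the lowest vehicle library and esculetin 2 the lowest esculetin library, as for fibrinogen. Their log2 fold changes were 0.03 (SE 0.10), 0.11 (SE 0.13) and -0.04 (SE 0.11). The value for Serpinf2 was 0.0036 without vehicle 1, 0.0059 without esculetin 1 and 0.20 without esculetin 2.

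Clotting genes outside the 31 were read from a list of 22, of which 20 were tested and 12 were higher with esculetin. Serpine2, a protease inhibitor also called nexin, was the only one called, through 1 library: it had 39.1 CPM in esculetin 1 and between 3.54 and 5.73 CPM in the other libraries. Without esculetin 1 its log2 fold change was 0.08 (unadjusted p = 0.719, edgeR), against 1.82 with it. S100a10, whose product forms a plasminogen receptor with annexin A2, had 41.6, 37.5 and 34.9 CPM with vehicle and 50.1, 53.8 and 45.0 CPM with esculetin. Its groups did not overlap, and the log2 fold change was 0.38 (SE 0.10, unadjusted p = 0.00280, adjusted p = 0.201, edgeR), under the 1.5-fold threshold.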

How the data were processed

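Per the labels and the study's methods, the authors aligned paired-end reads of liver RNA to GRCm39 (HISAT2 2.2.1), assigned them to genes (featureCounts) and deposited the raw counts. The processing notes also name mm10, which the study's methods give for its ATAC-seq and ChIP-seq reads. The annotation, strandedness and counting of reads in several genes are not given in the sources used here. All 6 count columns were mapped to samples by their names.

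Symbols, lengths and coordinates came from GENCODE vM39 (GRCm39), which held 54749 of the 55357 identifiers. Counts were filtered with filterByExpr, normalised with TMM and tested over all genes in R 4.3.3 (edgeR 4.0.16, quasi-likelihood) with Benjamini-Hochberg adjustment. SE is the log2 fold change over the square root of F. Set levels are means of log2(CPM + 0.5). Fits were tested on simulated data. Chi-square per gene between replicate libraries was at least 24.2, so none was a copy.

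The members and lists were chosen with earlier results of these data known. All members are named, with values per library by rule for those with p under 0.05, the vitamin K-dependent and vitamin K cycle genes and the 3 largest changes, and for others after their values were seen. From other lists the called genes were named. Gas6, Crp, S100a10, Nr1i2, Nr1i3, Alas2 and Apoa2 were named after their values were seen. Alternatives were DESeq2 1.42.0, limma-voom (limma 3.58.1), other normalisations and filters, a replicate block, each library left out and a fold change of 1.2. Kng1, Plg, Proc and Serpina10 had no entry in the promoter table. A planned promoter motif and a gene of the transcription factor list are not reported here.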

Additional observations from a re-analysis of the deposited data

How the results depend on the processing

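The number of the 31 genes called was 0 in all 13 alternative fits, and 1 (F11) where the fold threshold was 1.2, at which 1270 genes were called in all. Without a filter on low counts 776 genes were called in place of 452, and leaving out single libraries gave 411 to 588. Adjusted p-values under 0.05 were reached by 6 genes, by 193 with DESeq2, 477 without the filter, 15 with the replicate block, 45 without vehicle 1, 2 without vehicle 2, 15 without vehicle 3 and 4 to 6 without single esculetin libraries, and by 0 of the 31 in each. The number of the 31 with an unadjusted p under 0.05 was 2, but 1 with limma-voom (Hrg), 1 with the replicate block (Kng2), 3 without the filter (F11, Kng2 and Hrg), and 0 to 4 with single libraries left out. The median of the vitamin K-dependent factors stayed positive, between 0.05 and 0.12 without single libraries, and that of the other members ran from -0.0079 to 0.14. Scaling by total counts moved the median of all genes to -0.03 and the share higher among called genes from 43.8% to 38.9%, and turned Serpinc1 to -0.0104, and no filter turned Fgb to 0.0011. Leaving out single libraries also changed the sign of 14 estimates, which ran from -0.0046 to 0.0773 for F10, -0.0109 to 0.0657 for Proz, -0.33 to 0.14 for F3, -0.0771 to 0.0244 for F5, -0.0028 to 0.12 for F13b, -0.17 to 0.16 for Fga, -0.15 to 0.14 for Fgb, -0.11 to 0.19 for Fgg, -0.0278 to 0.0466 for Serpinc1, -0.0725 to 0.19 for Serpina10, -0.0588 to 0.22 for Tfpi, -0.0393 to 0.0987 for Plg, -0.15 to 0.0490 for Cpb2 and -0.0009 to 0.12 for Vkorc1l1. The replicate numbers do not pair the samples (correlations of deviations -0.092, -0.0281 and 0.019), and the block changed the calls of 0 of the 31 genes.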

Other observations

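Transcription factors of hepatocytes that are known regulators of clotting and acute phase genes were read from a list of 14, all tested. Hnf4a, at 440 to 588 CPM with vehicle and 512 to 586 CPM with esculetin, overlapped between groups. Cebpb and Cebpd, both C/EBP factors, were called higher. Cebpb had 24.9, 35.6 and 30.2 CPM with vehicle and 53.7, 43.4 and 40.3 CPM with esculetin, every esculetin library above every vehicle library (log2 fold change 0.60, SE 0.14, unadjusted p = 0.00211, adjusted p = 0.175, edgeR). Its fold change fell under 1.5 without vehicle 1 (log2 0.47), without esculetin 1 (log2 0.47) and with scaling by total counts (log2 0.57). Cebpd had 2.79, 3.25 and 3.90 CPM with vehicle and 7.12, 3.57 and 4.60 CPM with esculetin, with overlap (log2 fold change 0.62, unadjusted p = 0.0395, edgeR). It was no longer called with limma-voom (unadjusted p = 0.0662) or the replicate block (unadjusted p = 0.0613), nor without vehicle 1 (unadjusted p = 0.114), vehicle 2 (unadjusted p = 0.0864) or esculetin 1 (log2 fold change 0.30, unadjusted p = 0.213, edgeR). Nr1i2 and Nr1i3, the nuclear receptors PXR and CAR that sense foreign compounds, had unadjusted p-values of 0.00196 and 0.0244 (edgeR) with log2 fold changes of 0.30 (SE 0.07) and 0.39 (SE 0.14), under the fold threshold. Nr1i2 stood at 76.4, 78.7 and 73.7 CPM with vehicle and 93.9, 90.3 and 97.8 CPM with esculetin.

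Markers of other cell types stood far under those of hepatocytes, the highest sum in any library being 384 CPM for 7 stellate cell markers. The 5 platelet markers summed to between 2.09 and 2.52 CPM with vehicle and 2.19 and 3.61 CPM with esculetin, Gp1bb having no count, and Pf4 was called higher at under 1.2 CPM in every library, though not without esculetin 3 (unadjusted p = 0.0557, edgeR). The other called markers were each lost without at least 1 single library. Des was called higher (log2 fold change 0.69) where 5 of 7 stellate cell markers had estimates under 0, and not without esculetin 2 (unadjusted p = 0.0514, edgeR). Spp1 was called lower (log2 fold change -0.75) where the other 4 cholangiocyte markers had estimates above 0, and without vehicle 3 it was -0.47 (unadjusted p = 0.0851, edgeR) and without esculetin 2 -0.55 (unadjusted p = 0.0657, edgeR). Hba-a2 was called higher (log2 fold change 0.79), and 4 of 5 erythroid markers had estimates above 0, the exception being Alas2 at -0.24 (unadjusted p = 0.0097, edgeR, groups not overlapping), and Hba-a2 was no longer called without any single one of vehicle 1, 2 and 3 or without esculetin 1, where it was 0.48 (unadjusted p = 0.198, edgeR). S100a9 of neutrophils was called higher (log2 fold change 0.99), but without esculetin 1 it was 0.58 (unadjusted p = 0.224, edgeR), and it was not called without vehicle 1, vehicle 2 or esculetin 3 either. Hba-a2 and S100a9 also lost the call with limma-voom (unadjusted p = 0.0582 and 0.0501), and Hba-a2 with the replicate block (unadjusted p = 0.077, edgeR). Of the rest, 0 of 6 Kupffer cell markers and 0 of 6 hepatocyte markers were called. Their part in the values above was not tested.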
